A study of Mus musculus with 7 samples.

Results

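Enho is the gene for adropin, a small secreted peptide, and its liver transcript is described here in mice on a high-fat diet (HFD) and on chow. It is 1 of 32451 genes on the array, of which 20659 were named. Enho is measured by 2 of the array's 39429 probes, A_55_P2153517 and A_55_P2015753, called the first and the second Enho probe below. Both carry the RefSeq accession through which Enho was named. Liver RNA was hybridised with 1 array per sample and 1 colour, so that the brightness of a probe reports the level of its transcript. The HFD group (n = 3) and the chow group (n = 4) were male mice of the strain given as C57/BJ, all 26 weeks old, which had eaten their diet for 20 weeks from 6 weeks of age. The labels name different suppliers for HFD and chow, so fat content and the other ingredients cannot be told apart. They do not say which animal each liver came from.

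Adropin was described as a product of liver and brain that responds to feeding, and the gene name stands for energy homeostasis associated. In mice, adropin given to obese animals improved fatty liver and glucose handling, and liver Enho was found to respond to the nuclear receptors LXR and ROR, of which ROR is tied to the circadian clock. GPR19, an orphan receptor, and NB-3, the product of Cntn6, have been proposed as cell surface partners of the peptide.

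The deposited data hold a table of processed log2 values for 1615 probes and a scanner file for each array. In the 3 HFD samples the scanner file and the table column held the same measurement (Pearson r of at least 0.9999 across probes). In the 4 chow samples they did not (r of 0.580 to 0.589), so the values of Enho are given separately for the table and for the files. Hepatocyte markers were well above background on every HFD array for 14 of 14 genes, but 5 of 14, including albumin (Alb) and Apoa1, were not well above background in any scanner file labelled chow. In all 4 of these files, 8 of 14 were well above background. Of all spots that are no controls, 57.0% to 66.8% were well above background per HFD file and 62.1% to 63.7% per file labelled chow. HFD replicate 1 had a mean negative control signal of 46.9, outside the range its quality report allows, against 29.9 and 30.8 in the other HFD files. With 3 and 4 arrays a group, precision is limited by their number.

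In the value table Enho was far lower in HFD livers at both of its probes. The first probe had log2 values of 9.89, 10.32 and 9.87 in HFD replicates 1, 2 and 3, against 14.55, 13.94, 13.77 and 14.50 in chow replicates 1, 2, 3 and 4. The groups did not overlap, and 3.45 log2 units separated the highest HFD value from the lowest chow value. The group means were 10.03 ± 0.25 (SD, n = 3) in HFD and 14.19 ± 0.39 (SD, n = 4) in chow, a log2 difference of -4.16 with an SE of 0.23, or 17.9-fold lower. The second probe had log2 values of 8.74, 9.28 and 8.68 in HFD, against 13.74, 13.14, 13.13 and 13.77 in chow. Its means were 8.90 ± 0.33 (SD, n = 3) in HFD and 13.45 ± 0.36 (SD, n = 4) in chow, a log2 difference of -4.55 with an SE of 0.24, or 23.4-fold lower. Enho was chosen on this contrast, so these values are a description and carry no test.

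**Figure D1:**
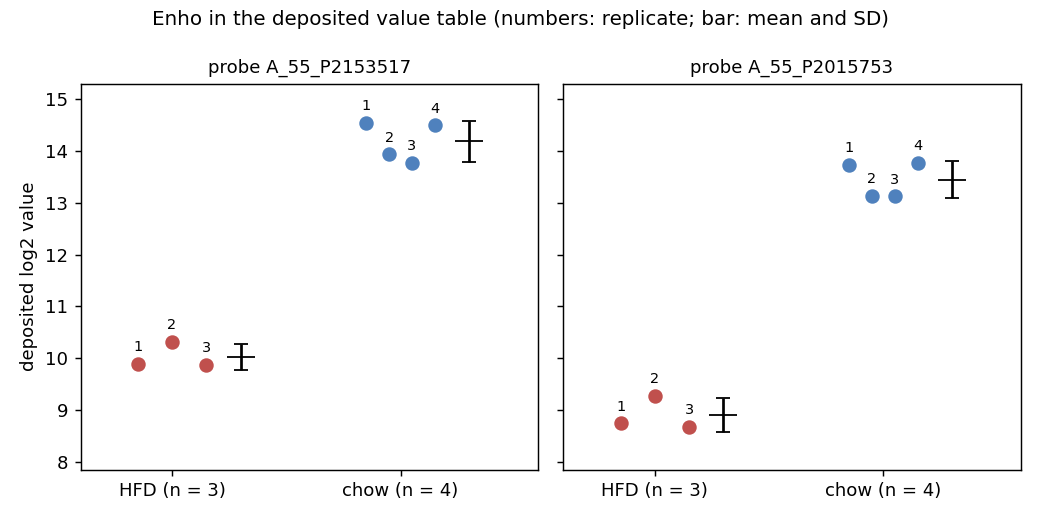
Deposited log2 values of the first (left) and second (right) Enho probe in each HFD and chow sample, with replicate numbers beside the points and the group mean and SD as a black bar. All HFD values lie at 10.32 or below and all chow values at 13.13 or above.

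Leaving out any 1 sample kept the fold of the first probe between 16.5 and 19.8 lower, and that of the second between 21.7 and 26.7 lower. Without HFD replicate 1, the array with the high negative controls, the folds were 17.1 and 22.1. The samples kept the same character at both probes: HFD replicate 2 was the highest of its group, and chow replicates 1 and 4 lay above chow replicates 2 and 3. After group means were removed, the deviations of the 2 probes correlated with r = 0.974 over the 7 columns. This is a description, since both probes share each sample's RNA, array and normalization. The spread of the first probe was above the middle of the table: its SD of 0.39 in chow compared with a median SD of 0.16 over all 1615 probes, and its SD of 0.25 in HFD with a median of 0.19.

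The table's 2 most lowered probes were the Enho probes, and no other gene was lower by 4 log2 units or more. The next was Asns, asparagine synthetase, with a log2 difference of -3.88. The median over the 743 lower probes was -0.84. At none of the 1615 probes did the groups overlap, so the separation of the Enho values is shared by every probe of the table. In the limma fit 1.05% of all genes on the array were called higher and 0.832% lower in HFD (342 and 270 of 32451, adjusted p under 0.05), and 4.59% were in the table at all (2.47% as higher and 2.12% as lower). Nothing is read from these shares for Enho. The 32451 genes count each accession or probe without a matched name as a gene of its own. Of the 20659 named genes, 1167 were in the table. The lists below hold named genes only, so shares over all 32451 genes are a low background for them. In bulk liver RNA, fewer cells of a type and less RNA per cell cannot be told apart.

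Enho remained measurable in the HFD livers. The processed signals of the first probe were 1114, 1171 and 946 in the scanner files of HFD replicates 1, 2 and 3, and those of the second were 516, 575 and 414. Both probes were well above background on all 3 arrays. The median signal of the first probe was 21.5 to 43.3 times its local background and that of the second 15.2 to 20.4 times. The scanner's own error estimate was at most 10.1% of the signal for each spot, and each probe had 1 spot per array. Relative to the 75th percentile of its array, the level of the first probe was 0.33 ± 0.26 on the log2 scale (SD, n = 3), and that of the second was -0.78 ± 0.33 (SD, n = 3).

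The size of the difference can be set against these signals. On the HFD arrays the other probes of the table tie each log2 value to a signal, and the Enho values lay on that relation to within rounding. The chow mean of the first probe, 14.19, lay where the HFD arrays had signals of 16575 to 19475, and the chow mean of the second, 13.45, where they had 9938 to 12159. The HFD means lay at 958 to 1219 and at 441 to 573. This reading assumes that the chow columns share the scale of the HFD columns, which was not tested.

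The scanner files labelled chow gave another picture, with Enho higher in the files labelled HFD. The first probe had log2 levels relative to the 75th percentile of 0.20, 0.63 and 0.17 in the files of HFD replicates 1, 2 and 3, against -0.68, -0.73, -0.65 and -0.87 in the files labelled chow 1, 2, 3 and 4. The groups did not overlap, and the difference, 1.07 with an SE of 0.13, had the opposite sign to that of the table. For the second probe the files labelled HFD had levels of -0.91, -0.40 and -1.02, and those labelled chow -3.72, -3.66, -3.16 and -3.69, a difference of 2.78 with an SE of 0.20. Between these files 80.2% of 20899 tested genes were called in limma (40.4% higher and 39.8% lower), and nothing is read from the direction of Enho there.

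**Figure D2:**
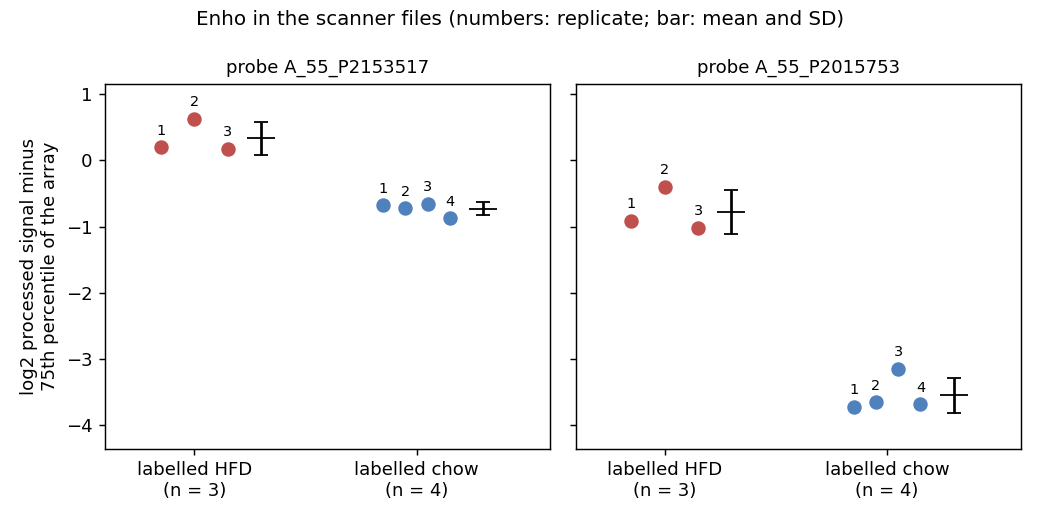
Log2 processed signal of each Enho probe minus the 75th percentile of its array, by scanner file, with replicate numbers and the group mean and SD as a black bar. Files labelled HFD lie above files labelled chow at both probes, by 1.07 at the first (left) and 2.78 at the second (right).

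Before scaling, the first probe was nearly equal in the 2 sets of files, with processed signals of 1114, 1171 and 946 in HFD and of 992, 1028, 1063 and 1130 in the files labelled chow. The mean log2 difference was then 0.03. The second probe had signals of 120, 134, 188 and 161 in the files labelled chow, below the 414 to 575 of HFD. Neither set of chow signals comes near the 9938 or more at which the table's chow means lay on the HFD arrays. The decrease of Enho in HFD rests on the chow columns of the table, and their scanner measurements were not analysed here.

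**Figure D3:**
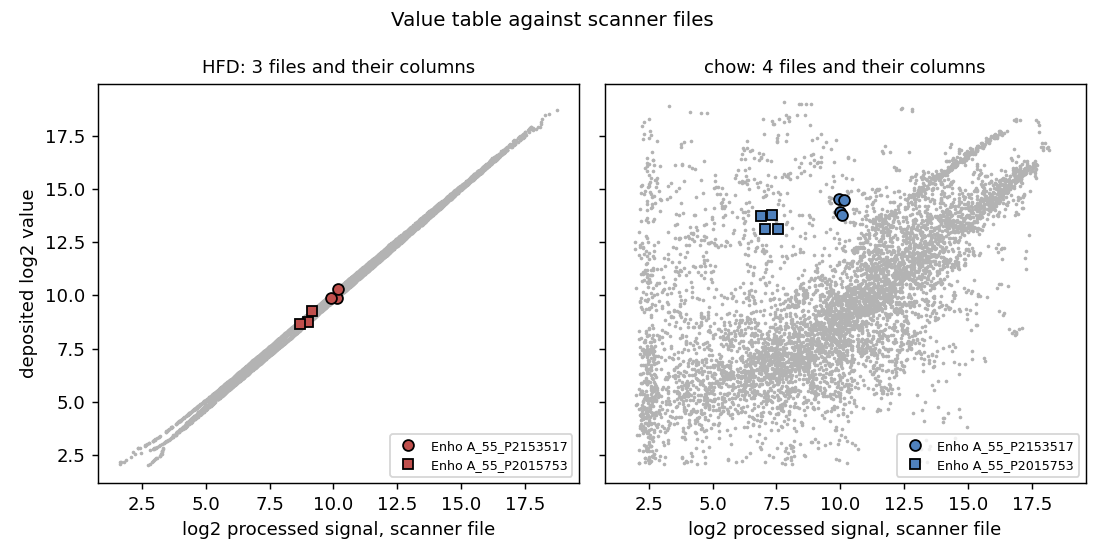
Deposited log2 value of 1615 probes (grey) against the log2 processed signal in the scanner file of the same label, for the 3 HFD samples (left) and the 4 chow samples (right), with the Enho probes as coloured points. The HFD points follow narrow lines (r of at least 0.9999), while the chow points scatter (r of 0.580 to 0.589). The chow values of Enho lie above the bulk, as do those of other genes, such as Vtn and Hc.

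The genes of the table whose values were most like those of Enho were found by Pearson's r with the first probe across the 7 columns, with 1 probe per gene. Because the samples fall into 2 groups that never overlap in the table, r was high in size for every gene: its median size over 1487 genes was 0.922 and its lowest 0.805. The 6 named genes with the highest r were Dhrs13, a short-chain dehydrogenase (r = 0.995), Fam25c (0.995), Fam234b (0.994), Ptk2b, a tyrosine kinase (0.990), Eef1akmt4, a lysine methyltransferase (0.990), and the tetraspanin Tspan4 (0.989). All 6 were lower in HFD, but by far less than Enho, with log2 differences of -0.35 for Dhrs13 to -1.60 for Fam25c. The 4 with the lowest r were Uqcrc2, a subunit of respiratory complex III (r = -0.994), the sterol isomerase relative Ebpl (-0.993), the intestinal-type fatty acid binding protein gene Fabp2 (-0.992) and Sdha, a subunit of complex II (-0.990). These were higher in HFD, with log2 differences of 0.36 for Sdha to 1.86 for Fabp2. The named 10 were not stable. With any 1 sample left out, 3 to 7 of them stayed among the 10, and with Spearman's rho 1 did.

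Deviations from the group means show which genes also followed Enho from sample to sample within a diet. Over 1487 genes the median of this within-group r was 0.00, with quartiles of -0.32 and 0.29. The 4 named genes with the highest values were 1810046K07Rik (r = 0.984), Gapdhs, the sperm form of glyceraldehyde-3-phosphate dehydrogenase (0.983), the retinol dehydrogenase relative Rdh16f2 (0.942) and Fam25c (0.923). Fam25c had values of 12.20, 12.50 and 12.20 in HFD replicates 1, 2 and 3, against 14.05, 13.66, 13.78 and 14.12 in chow replicates 1, 2, 3 and 4. Like Enho, it was highest in replicate 2 within HFD and higher in replicates 1 and 4 within chow. Rdh16f2 had 12.24, 12.74 and 12.23 in HFD, against 13.81, 13.23, 13.35 and 13.80 in chow, with the same samples high. Gapdhs was well above background on 2 of 3 HFD arrays. With the second Enho probe in place of the first, the within-group r was 0.937 for 1810046K07Rik, 0.954 for Gapdhs, 0.988 for Rdh16f2 and 0.974 for Fam25c. Sdha had the lowest within-group r of the 1487 genes (-0.940). These values come from 7 columns with 5 degrees of freedom and are extremes picked from many genes, so they are a description.

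**Figure D4:**
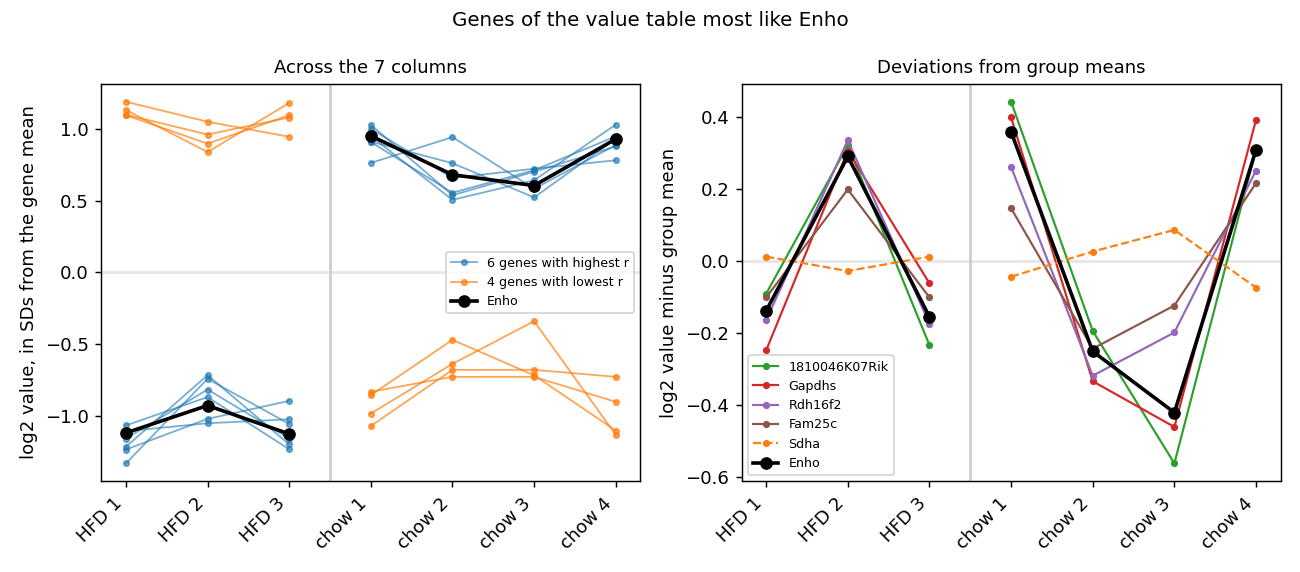
Left, log2 values in SDs from each gene's mean for Enho (black), the 6 named genes with the highest r and the 4 with the lowest, by sample, where lines only link the values of 1 gene within a diet. Right, log2 values minus the group mean for Enho, the 4 named genes with the highest within-group r (0.923 to 0.984) and Sdha (-0.940, dashed), where HFD replicate 2 and chow replicates 1 and 4 are high for the first 4 genes and for Enho.

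Genes next to Enho on its chromosome were looked at in the RefSeq order, 4 named genes with probes on each side. Of these 8 genes, 1 was in the table. That gene, Fam219a, had log2 values of 14.91, 15.43 and 15.55 in HFD, against 15.96, 16.10, 16.34 and 16.30 in chow. It lay 0.88 lower in HFD (SE 0.18) and did not pass in limma (adjusted p = 0.0634). The immediate neighbours were not in the table: Dnaic1, which encodes a dynein intermediate chain of cilia, was well above background on all 3 HFD arrays, and Cntfr, a cytokine receptor gene, on 2 of 3.

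The listed clock genes and ROR or REV-ERB receptors were mostly outside the table, and whether any of them controls Enho here was not tested. Of 19 measured clock genes and ROR or REV-ERB receptors, 1 was in the table, where 4.59% of all genes were. Rora, Nr1d1 and Nr1d2, which encode ROR alpha and the REV-ERB pair, were well above background on all 3 HFD arrays but have no table value for either diet. The listed member was Per1, a period gene of the clock. It had values of 12.27, 12.36 and 11.93 in HFD, against 10.71, 10.83, 10.30 and 10.95 in chow, and rose 2.81-fold (adjusted p = 0.0255 in limma). The time of day at which the livers were taken is not given in the sources used here, and its part was not tested.

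Among 16 measured LXR receptors and sterol genes the table listed 4, each of them higher in HFD (2.47% of all genes were listed as higher). Their median log2 difference was 1.22. The median was 0.82 over the 872 probes higher in HFD, and 0.44 over all 1488 table genes, higher and lower together. The receptor genes Nr1h3 and Nr1h2 were not among the 4. Srebf1, the lipogenic transcription factor gene that LXR induces, had values of 10.56, 10.56 and 10.36 in HFD, against 9.15, 8.93, 8.46 and 8.69 in chow, and rose 3.22-fold (adjusted p = 0.0219 in limma). Scd1, Abcg5 and Mylip, all known LXR targets, had log2 differences of 1.57, 0.87 and 0.48 and did not pass (adjusted p of 0.0669 to 0.0779 in limma). Each listed gene of this group had a difference of the opposite sign to that of Enho.

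Genes of fuel use that have been studied together with adropin had 6 of 14 measured members in the table, each of them higher in HFD, with a median log2 difference of 1.19. Over all genes 2.47% were listed as higher and 1.05% passed as higher. Of the 6 members 4 passed in limma: Cd36, the fatty acid translocase (5.60-fold, adjusted p = 0.0291), Fasn, fatty acid synthase (2.89-fold, adjusted p = 0.0251), Pparg, the nuclear receptor of fat storage (2.47-fold, adjusted p = 0.0181), and Acaca, acetyl-CoA carboxylase (1.62-fold, adjusted p = 0.0484). Cpt1b and Acacb had log2 differences of 1.08 each and did not pass. Cpt1a was well above background on all 3 HFD arrays but was not in the table. Pdk4, which restrains glucose oxidation, and the gluconeogenic genes Pck1 and G6pc were not in the table. Of 3 listed partner genes, Gpr19 had no probe named here and was not analysed. Cntn6 was well above background on no HFD array and Notch1, a receptor gene also linked to adropin through NB-3, on all 3, and neither was in the table.

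Of 22 other measured genes of secreted liver factors, 3 were in the table, against 4.59% of all genes, with a median log2 difference of 0.57. The remaining genes have no table value for either diet. Fetub, which encodes the hepatokine fetuin-B, fell, with values of 15.35, 15.60 and 15.70 in HFD against 16.70, 16.47, 16.37 and 16.41 in chow, a log2 difference of -0.94 (SE 0.13, adjusted p = 0.0294 in limma). Angptl6 and Lect2 had log2 differences of 0.57 and 0.64 and did not pass. Fgf21, the fasting hepatokine, was not in the table. No list was tested as a set, and every probe of the table separates the diets, so these calls are not independent evidence. The count of calls also depended on the samples kept. In limma it was 612 with all 7, 0 without chow replicate 1 or HFD replicate 1, and 453 without HFD replicate 3. The other fits with 1 sample left out called 3 to 99. In each of these fits 1488 of 1488 table genes kept an unadjusted limma p under 0.05. That is no support, since the groups overlap at no probe of the table.

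**Figure D5:**
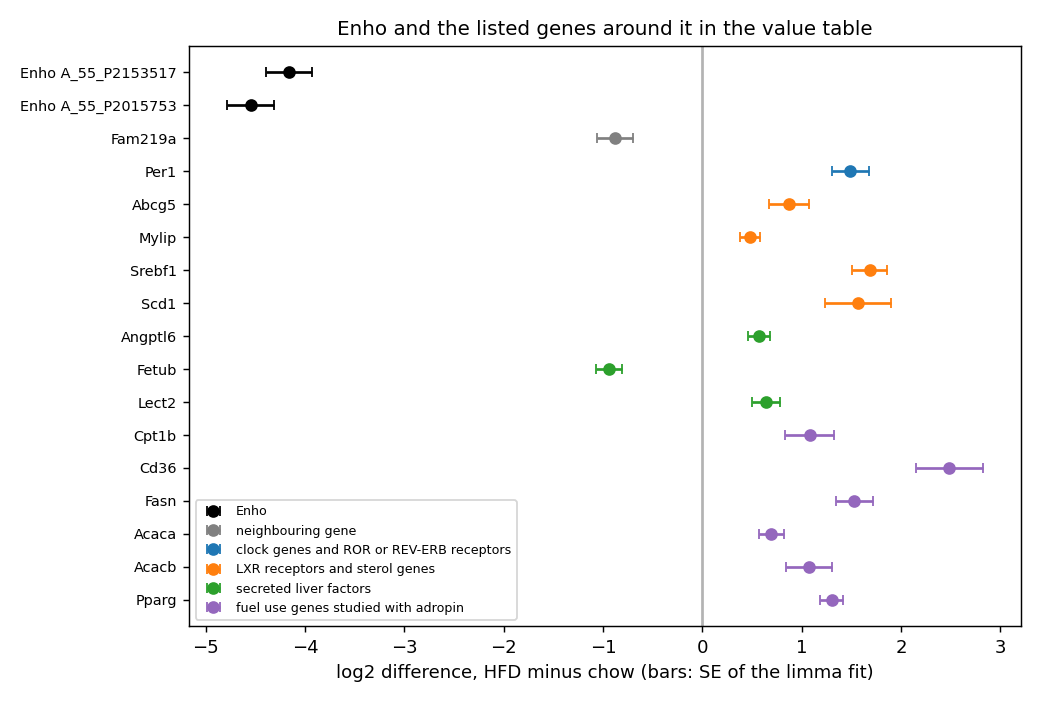
Log2 difference, HFD minus chow, with its SE from the limma fit, for the 2 Enho probes, the neighbouring gene Fam219a and the 14 pathway genes in the table. Enho lies at -4.16 and -4.55, while the other genes lie between -0.94 (Fetub) and 2.49 (Cd36).

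Markers of several cell types were in the same table, read here against 4.59% of all genes listed and 1.05% called higher and 0.832% lower. Macrophage markers were listed for 3 of 11 measured genes, all of which passed as higher in HFD: Itgam, Ccr2 and Gpnmb. Gpnmb was at least 5.86-fold higher, given as a bound because the gene's 4 chow values were under a detection floor of 4.93, the lowest value of a probe well above background in HFD replicate 1. The summed level of the 3 genes on the linear scale of the table was 4372 to 5950 in HFD and 2632 to 2726 in chow, and Itgam made up 89.0% to 96.3% of it in HFD and 97.8% to 98.9% in chow. Stellate cell markers were listed for 2 of 8 genes, Col3a1 and Dcn, both higher and not passing. Their sum was 57624 to 82960 in HFD and 39593 to 47134 in chow, of which Dcn made up at least 94.6% in HFD and 97.6% in chow. Hepatocyte markers were listed for 2 of 14, both lower, with Serpina1a passing at 1.43-fold and Cps1 not. No endothelial, cholangiocyte, lymphocyte, adipose or pancreas marker was listed, and 1 of 7 blood cell markers (Pf4) and 1 of 5 brain markers (Snap25) were. Snap25 passed as higher in HFD (adjusted p = 0.0237 in limma), and Pf4 did not pass (adjusted p = 0.0761). The part of these shifts in the Enho difference was not tested.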

How the data were processed

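Liver total RNA (0.5 microgram) was labelled with Cy3 and hybridised to 7 Agilent arrays, per the labels' protocols, and samples were grouped by their titles. The scanner files hold intensity values as deposited, with background-subtracted processed signals from Feature Extraction 10.7.3.1 per the file headers. Version 9.1 is named by the submitters' processing notes. A second file deposited by the authors lists log2 values of 1615 probes. How it was normalized and its probes chosen is not stated in the labels. Probes were named through their RefSeq accession (27234 of 39429 matched) in RefSeq assembly GRCm38.p6, from which only names and gene order were taken, since the headers name another build.

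From these values, processed signals were scaled to the 75th percentile of each array over spots that are no controls, outlier spots were left out and spots of a probe averaged. The 75th percentiles were 758 to 971 in HFD files and 1586 to 2070 in files labelled chow, and no spot was saturated. Differences were fitted with limma 3.58.1 (R 4.3.3), HFD minus chow, with 1 probe per gene (the highest mean). The scanner fit took probes detected (well above background) on 3 or more arrays. In the table, Benjamini-Hochberg adjustment covered all 32451 genes, with a p of 1 outside the table, in limma, and variances were moderated toward a prior (0.0354, 2.10 degrees of freedom) from 19490 genes that were detected on 2 or 3 HFD arrays. The fit was tested on simulated data. The p-values measure the spread between these samples, which may be technical. HFD files were scanned on 1 day and files labelled chow on another, so scan day and diet cannot be told apart there.

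Enho, the gene lists and the table as main source were chosen with earlier results of these data known. Named genes were the 6 with the highest and 4 with the lowest r with Enho, the 4 with the highest within-group r, every list member in the table and 4 neighbours on each side. The lists were clock genes, LXR and sterol genes, candidate receptors and partners, secreted liver factors, fuel use genes and markers of 10 cell types or tissues. Mean spot signals were not in the files used, so normexp correction was run on median signals. Alternatives were scaling, background correction, probe, prior, adjustment, filter, replicate block and leaving out each sample.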

Additional observations from a re-analysis of the deposited data

Results flagged for a closer look

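In 41 chow groups of 4 samples examined for 1 sample far from the others, 4 had such a sample. Chance marks about 1 in 20 groups. For the second Enho probe, the file labelled chow 3 had a log2 level of -3.16 against -3.72 to -3.66 in the other files labelled chow (gap over range 0.886). In the value table Gpnmb was 3.45 in 1 chow sample and 2.15 to 2.31 in the others (0.873), all below the detection floor. Serpina1a was 18.38 in 1 chow sample and 18.47 in the other 3 (ratio 1.0). Uqcrc2 was 14.88 in 1 chow sample and 14.95 to 14.96 in the others (0.875). Values of this size were deposited rounded, so ties enter the ratios of Serpina1a and Uqcrc2. Their SDs in chow, 0.045 and 0.039, were below the median of 0.16 over all table probes.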

How the results depend on the processing

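The log2 difference of Enho in the value table was -4.16 and stayed negative under every alternative run, between -4.31 and -4.04 with 1 sample left out, -4.06 with replicate number as a block (replicate block), and -4.55 with the second probe, an alternative added after seeing the data. The kept sign is no support, since Enho was chosen on this contrast. With 3.45 log2 units between its groups, leaving out a sample could not change the sign. In the scanner files the difference of 1.07 stayed positive, but its size depended on the scaling. It was 0.69 under median scaling, where the median over all genes was -0.36. For unscaled signals (added after seeing the data) it was 0.0285, and the 2 sets of files overlapped. It was 1.92 for the mean of both probes, 2.78 for the second probe (added after seeing the data), 1.02 with the replicate block, and 0.92 to 1.15 with 1 sample left out. The Enho level in HFD files, 0.33 relative to the 75th percentile, was 4.04 relative to the median, -0.22 for the mean of both probes, and 0.19 to 0.41 with 1 array left out. The count of genes called in the table, 612, was 1026 with the table's own prior and 1488 adjusted over the table alone. In limma it was 0 with the replicate block (1488 at an unadjusted p under 0.05) and 0 to 453 with 1 sample left out. These last fits have fewer samples or degrees of freedom. The unadjusted count is no support, since the groups overlap at no probe of the table. The count in the scanner files, 16756, was 8569 with normexp correction, the cause of which was not tested, and 15929 to 16907 with 1 sample left out. Its split of 8435 higher and 8321 lower was 3762 and 4807 with normexp, 6358 and 10611 under median scaling, 6958 and 9948 under quantile normalization and 15791 and 8183 without the filter on dim probes. Of the 10 genes most like Enho, 1 remained with Spearman's rho, 2 with the within-group r and 3 to 7 with 1 sample left out. Deviations of same-numbered samples correlated with -0.10, 0.14 and 0.03, within the range of -0.16 to 0.14 for samples with unlike numbers. These few values cannot settle whether replicate numbers pair the samples.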
